A study of Mus musculus with 3 samples.

Results

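Transcription factor genes that mark or specify gastric and endodermal epithelium, 9 in all, were followed across 3 libraries of mouse stomach organoids. They were chosen by symbol: the zinc finger genes Gata4 and Gata6, the forkhead genes Foxa1, Foxa2 and Foxa3, the nuclear receptor genes Hnf4a and Hnf4g, and the Krüppel-like genes Klf4 and Klf5. All 9 were found among the 56691 genes of the deposited table, and all 9 passed the filter of at least 1 FPKM in some library, which kept 13351 genes. FPKM is the read number of a gene scaled to the length of its exons and to the size of the library. The cultures were epithelial organoids grown in Matrigel under proliferative conditions from the stomach corpus of mice of about 8 weeks. The titles of all 3 also bear the mark P5, which the sources used here do not explain. The Mist1- and Mist1+ organoids carry the genotype label WT and came from Mist1Cre/ERT2;RFPLSL animals, in which an inducible Cre is expressed from the Mist1 locus and switches on a red reporter. The Gpx4 KO-Mist1+ organoids came from Gpx4F/F;Mist1Cre/ERT2;RFPLSL animals, which also have a floxed Gpx4. Mist1, the product of Bhlha15, is a transcription factor of secretory cells, and Gpx4 encodes a glutathione peroxidase that reduces lipid peroxides. How Mist1+ and Mist1- cells were separated, the induction scheme, and the number of mice behind each culture are not given in the sources used here.

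Each group had 1 library. No comparison therefore has a replicate check and no p-value is given. The libraries held 14943918 counts (Mist1-), 16187378 (Mist1+) and 16396693 (Gpx4 KO-Mist1+). Every interval given is a 95% interval for counting error, exact Poisson for an FPKM and exact binomial for a fold between libraries. Reads without molecular identifiers are not independent molecules, so the intervals cover counting error only and not the differences between cultures. Fewer cells of a type and less RNA per cell cannot be told apart in such bulk libraries. The targeted gene Gpx4 had 90.9 FPKM in the library labelled Gpx4 KO-Mist1+, against 171 in Mist1- and 71.6 in Mist1+, so its gene-level count was not lower in the labelled knockout than in Mist1+. A read count over the whole gene does not show which exons were deleted. The label gene Bhlha15 had 10.2 FPKM in Mist1+, against 5.40 in Mist1-. Its 6.46 FPKM in Gpx4 KO-Mist1+ was 1.20-fold (1.02 to 1.40) above Mist1- and 1.59-fold (1.39 to 1.81) below Mist1+. Gata4 and Foxa1 also had their highest level in Mist1+ and in Gpx4 KO-Mist1+ a level nearer to that of Mist1-, and whether these levels are linked was not tested. All 7 epithelial markers were kept, with summed levels of 3503, 2499 and 2564 FPKM in the order Mist1-, Mist1+, Gpx4 KO-Mist1+, and 9 of 11 corpus markers were kept, with sums of 3701, 4199 and 4129 FPKM and with Atp4b at 0 in all 3. Of markers of other cells, 0 of 7 fibroblast, 0 of 4 endothelial and 0 of 7 enteroendocrine genes were kept, and the squamous list kept 2 of 6 with Trp63 at 0. The immune list kept 1 of 6, Cd68, and its sum was 4.45, 5.12 and 24.4 FPKM with Cd3e at 0 throughout. The intestinal list kept 2 of 8, with Cdx1 and Alpi at 0 and sums of 165, 65.5 and 115 FPKM. Its 2 kept genes differed in pattern, with Vil1 at 32.81, 14.16 and 84.95 FPKM and Lgals4 at 131.61, 50.86 and 29.08. The hepatocyte list kept 4 of 5 and summed to 34.9, 25.8 and 19.3 FPKM. What the cells behind these levels contribute to the values of the transcription factor genes was not tested.

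The 9 factors bind DNA in regulatory regions of endodermal genes. GATA and FOXA proteins can bind sites in closed chromatin and are known as pioneer factors of gut and liver development, HNF4 proteins are nuclear receptors that drive genes of lipid and transport metabolism, and KLF4 and KLF5 are known as factors of differentiated and of proliferating epithelial cells respectively. In the stomach, GATA4 is needed for normal gastric epithelium, HNF4A supports gastric epithelial identity, and FOXA proteins act on genes of mucous secretion.

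Reads of all 9 factors were found in all 3 cultures, and 8 of the 9 differed by less than 2-fold between any pair of libraries, with Hnf4g as the exception. Foxa1 had the highest level of the 9 in every library and Hnf4g the lowest. In Mist1+, Gata4 was 1.89-fold and Foxa1 1.61-fold above Mist1-, and both were near the Mist1- level in Gpx4 KO-Mist1+. Foxa2 ran the other way, lowest in Mist1+ and highest in Gpx4 KO-Mist1+, and Foxa3 was lowest in Gpx4 KO-Mist1+. Hnf4g, which passed the filter through Mist1+ alone, had the widest range, from 158 reads in Mist1+ to 22 in Gpx4 KO-Mist1+, while Klf4 had the narrowest, with its highest level 1.15 times its lowest.

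**Figure D1:**
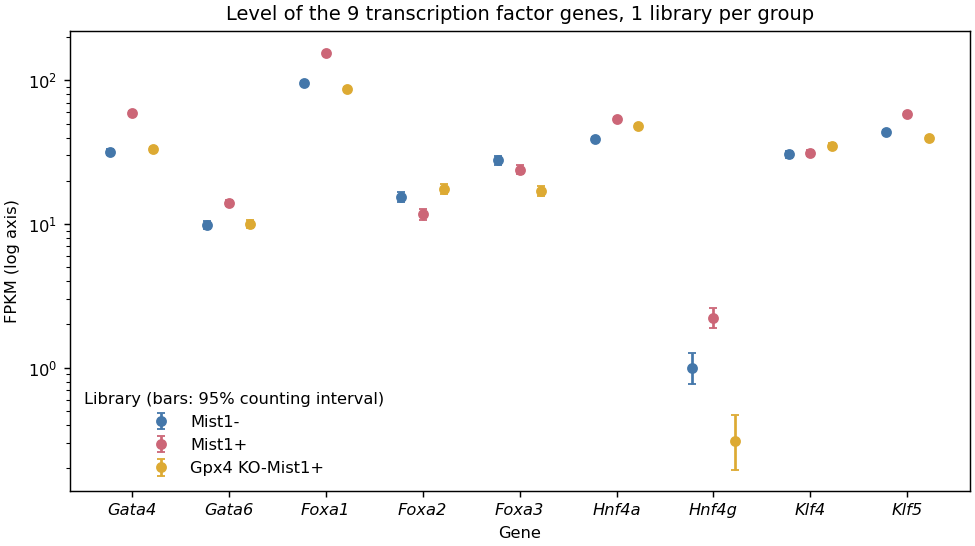
Level of each of the 9 genes (horizontal) in FPKM on a log axis (vertical), with 1 coloured point per library and its 95% counting interval as a bar. Foxa1 lies at the top, between 87.4 and 154 FPKM, and Hnf4g at the bottom, between 0.31 and 2.22 FPKM.

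FPKM is scaled to exonic length, but an order between genes still rests on the lengths used and on any trend on gene length. The intervals do not cover these. In Mist1-, the order by FPKM was Foxa1, Klf5, Hnf4a, Gata4, Klf4, Foxa3, Foxa2, Gata6 and Hnf4g. Gata4 and Klf4 did not differ there beyond counting error, at a ratio of 1.03 (0.962 to 1.11), while Klf4 was 1.11 times (1.01 to 1.21) Foxa3. In Mist1+ the order was Foxa1, Gata4, Klf5, Hnf4a, Klf4, Foxa3, Gata6, Foxa2 and Hnf4g, where the ratio of Gata4 to Klf5 of 1.02 (0.974 to 1.06) included 1. In Gpx4 KO-Mist1+ it was Foxa1, Hnf4a, Klf5, Klf4, Gata4, Foxa2, Foxa3, Gata6 and Hnf4g, where the ratio of Klf4 to Gata4 of 1.06 (0.996 to 1.13) and that of Foxa2 to Foxa3 of 1.04 (0.925 to 1.16) included 1. Within counting error, Gata4 thus shared places 4 and 5 with Klf4 in Mist1- and in Gpx4 KO-Mist1+. It shared places 2 and 3 with Klf5 in Mist1+. Foxa1 exceeded 95.5% of all kept genes in Mist1-, 98.3% in Mist1+ and 96.6% in the Gpx4 KO-Mist1+ library. Hnf4g exceeded only 12.4%, 22.5% and 1.71% of them.

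The GATA factors recognise the core letters GATA through paired zinc fingers, and Gata4 was the more abundant of the 2 in every library. Gata4 (ENSMUSG00000021944, GRCm38 chr14:63198922-63271692, minus strand, protein coding) stood at 31.6 FPKM (1843 counts) in Mist1-, 59.6 (3769) in Mist1+ and 33.1 (2121) in the Gpx4 KO-Mist1+ library. The Mist1+ library was the high one, and the others were within counting error of each other. Gata4 was 1.89-fold (1.79 to 2.0) higher in Mist1+ than Mist1-, 1.80-fold (1.71 to 1.9) lower in Gpx4 KO-Mist1+ than in Mist1+, and 1.05-fold (0.985 to 1.12) the Mist1- level in Gpx4 KO-Mist1+. Gata6 (ENSMUSG00000005836, GRCm38 chr18:11052064-11085635, plus strand, protein coding), which acts beside Gata4 in endoderm, stood at 9.81 FPKM (954 counts), 14.1 (1480) and 9.97 (1064) in the same order. Before any subtraction for gene length, Mist1+ was again the high library, with smaller folds than for Gata4. Gata6 was 1.43-fold (1.32 to 1.56) higher in Mist1+ than Mist1- and 1.41-fold (1.30 to 1.53) lower in Gpx4 KO-Mist1+ than in Mist1+. With the length trend, given further on, subtracted, its log2 ratio of Mist1+ to Mist1- was 0.06, against 0.79 for Gata4. The log2 ratio of Gpx4 KO-Mist1+ to Mist1+ was then -0.35 for Gata6 and -0.70 for Gata4. Gata6 in Gpx4 KO-Mist1+ was 1.02-fold (0.931 to 1.11) its Mist1- level, an interval that includes 1. The antisense gene 1010001N08Rik shares 93 exonic bases with Gata6 and had 96, 189 and 144 counts. The strand setting of the counting is not given in the sources used here, so reads from those bases could not be assigned to either gene with certainty. Gata4 exceeded Gata6 by an FPKM ratio of 3.22 in Mist1-, 4.24 in Mist1+ and 3.32 in the Gpx4 KO-Mist1+ library. That ratio was 1.32-fold (1.19 to 1.46) higher in Mist1+ than Mist1-, so Gata4 differed by more than Gata6 beyond counting error. The log2 shift of 0.40, from counts, was 0.73 on log2(FPKM + 1) with the length trend subtracted.

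The remaining GATA genes were listed for comparison, and 1 of 5 was kept. This was Gata5, the third GATA gene of the gut, at 32.5 FPKM in Mist1-, 43.8 in Mist1+ and 33.6 in the Gpx4 KO-Mist1+ library. It also had its highest level in Mist1+, 1.35-fold (1.27 to 1.44) over Mist1- and 1.31-fold (1.23 to 1.39) over Gpx4 KO-Mist1+.

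The FOXA factors are winged-helix proteins, and the 3 genes did not share a pattern. Foxa1 (ENSMUSG00000035451, GRCm38 chr12:57540628-57546916, minus strand, protein coding) stood at 95.8 FPKM (4763 counts) in Mist1-, 154 (8292) in Mist1+ and 87.4 (4766) in the Gpx4 KO-Mist1+ library. Only the Mist1+ level was high: it was 1.61-fold (1.55 to 1.67) above Mist1- and 1.76-fold (1.70 to 1.83) above Gpx4 KO-Mist1+. Foxa1 in Gpx4 KO-Mist1+ was 1.10-fold (1.05 to 1.14) below Mist1-, but on TPM, a rescaling of the FPKM to a common sum over genes, the sign turned. Foxa2 (ENSMUSG00000037025, GRCm38 chr2:148042877-148046969, minus strand, protein coding), known for its part in early endoderm, stood at 15.4 FPKM (545 counts), 11.7 (448) and 17.5 (681). Its order was the reverse of Foxa1, with Mist1+ lowest. Foxa2 was 1.32-fold (1.16 to 1.5) lower in Mist1+ than in Mist1-, and 1.5-fold (1.33 to 1.69) higher in Gpx4 KO-Mist1+ than in Mist1+. Foxa2 in Gpx4 KO-Mist1+ was 1.14-fold (1.02 to 1.28) above Mist1-. Foxa3 (ENSMUSG00000040891, GRCm38 chr7:19013284-19023538, minus strand, protein coding), a FOXA gene linked to liver and goblet cells, stood at 27.7 FPKM (843 counts), 24.0 (790) and 16.9 (565). The level in Gpx4 KO-Mist1+ was below both others, 1.42-fold (1.27 to 1.58) under Mist1+ and 1.64-fold (1.47 to 1.82) under Mist1-. Mist1+ was 1.16-fold (1.05 to 1.28) below Mist1- for Foxa3, but this sign turned on TPM, at a log2 ratio of 0.12 against -0.20 on FPKM.

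As the patterns differed, so did the balance between the 3 FOXA genes. The ratio of Foxa1 to Foxa2 was 6.22 in Mist1-, 13.2 in Mist1+ and 4.99 in the Gpx4 KO-Mist1+ library. It was 2.12-fold (1.86 to 2.42) higher in Mist1+ than Mist1- and 2.64-fold (2.33 to 3.0) lower in Gpx4 KO-Mist1+ than in Mist1+. Library totals cancel in such a ratio of 2 genes, but a trend on gene length does not. With the length trend of the ratios, given further on, subtracted, the log2 shift of Foxa1 over Foxa2 in Mist1+ against Mist1- was 0.83 in place of 1.08, which is under 2-fold, and that of Foxa1 over Foxa3 was 0.57 in place of 0.89. The shift of Foxa1 over Foxa2 in Gpx4 KO-Mist1+ against Mist1+ was -1.34 in place of -1.40. For all gene pairs, the shift before subtraction is of counts and the one after it is of log2(FPKM + 1). Such values thus differ in scale as well as in the length trend. The ratio of Foxa2 to Foxa3 was 0.556, 0.487 and 1.04. Foxa3 was the more abundant of that pair in Mist1- and Mist1+, and the 2 genes did not differ beyond counting error in Gpx4 KO-Mist1+. The Foxa2 to Foxa3 ratio was 2.13-fold (1.80 to 2.5) higher in Gpx4 KO-Mist1+ than in Mist1+ and 1.86-fold (1.59 to 2.18) higher than in Mist1-, while Mist1+ and Mist1- did not differ beyond counting error at 0.877-fold (0.746 to 1.03). The 3 genes summed to 139 FPKM in Mist1-, 189.6 in Mist1+ and 122 in the Gpx4 KO-Mist1+ library. Foxa1 made up 69.0%, 81.2% and 71.7% of that sum, Foxa2 11.1%, 6.16% and 14.4%, and Foxa3 19.9%, 12.6% and 13.9%.

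**Figure D2:**
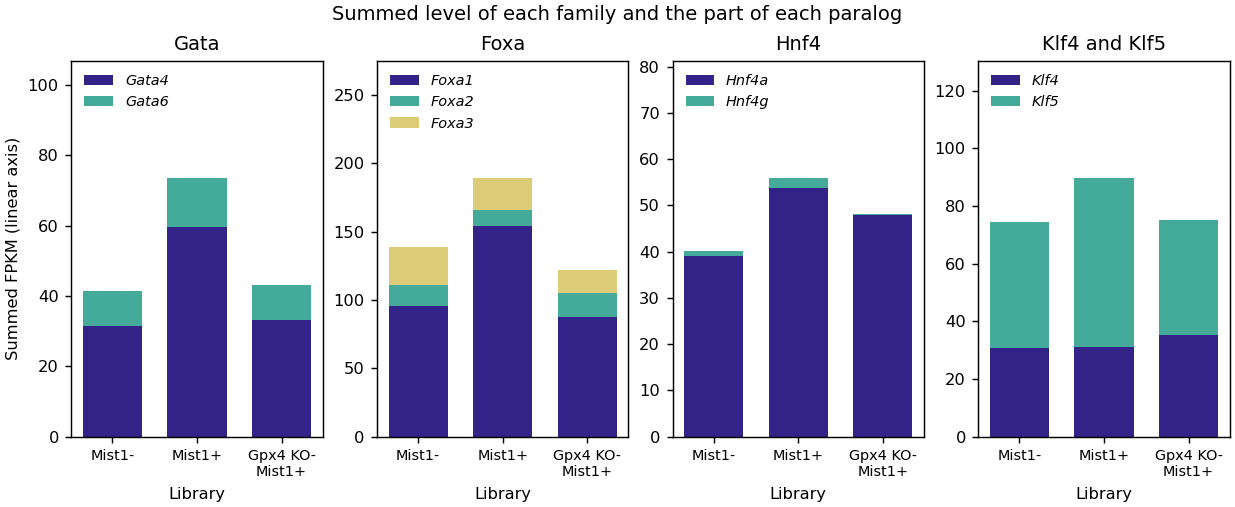
Summed FPKM of each family (vertical, linear axis from 0) as stacked bars, 1 bar per library and 1 panel per family, with the parts of the bar standing for the genes. The Foxa1 part of the sum is 81.2% in Mist1+ against 69.0% in Mist1- and 71.7% in Gpx4 KO-Mist1+, and the Hnf4g part is 0.644% in Gpx4 KO-Mist1+.

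The Foxa2 and Foxa3 promoters are shown because the balance of these genes shifted and because the Foxa2 count pools transcripts from several starts. The windows are the 250 bases before a RefSeq start on GRCm38.p6, read 5′ to 3′ on the gene's strand, which is minus for both genes. Capitals mark matches, on either strand, to the GATA letters GATAA, the forkhead letters TNTTTAC, the HNF4 letters CAAAGNNCA and the KLF letters CCNCNCCC, where N is any base. Of 32851 RefSeq windows of this length, 22.6% held GATAA, 10.9% TNTTTAC, 5.49% CAAAGNNCA and 45.9% CCNCNCCC. The first Foxa2 window (chr2:148046970-148047219) lies upstream of the whole gene, the second (chr2:148045465-148045714) before a start further downstream, and the Foxa3 window is chr7:19023540-19023789.
Foxa2, upstream start: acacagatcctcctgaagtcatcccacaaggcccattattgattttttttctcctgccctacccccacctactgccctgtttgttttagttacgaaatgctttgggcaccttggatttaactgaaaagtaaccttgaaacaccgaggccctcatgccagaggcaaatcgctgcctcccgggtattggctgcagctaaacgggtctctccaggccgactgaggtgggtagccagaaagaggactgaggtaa
Foxa2, downstream start: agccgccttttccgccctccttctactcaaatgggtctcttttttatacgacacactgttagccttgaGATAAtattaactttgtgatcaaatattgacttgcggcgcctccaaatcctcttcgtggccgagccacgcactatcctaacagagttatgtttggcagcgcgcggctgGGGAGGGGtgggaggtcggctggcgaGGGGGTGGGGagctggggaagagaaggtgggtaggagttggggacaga
Foxa3: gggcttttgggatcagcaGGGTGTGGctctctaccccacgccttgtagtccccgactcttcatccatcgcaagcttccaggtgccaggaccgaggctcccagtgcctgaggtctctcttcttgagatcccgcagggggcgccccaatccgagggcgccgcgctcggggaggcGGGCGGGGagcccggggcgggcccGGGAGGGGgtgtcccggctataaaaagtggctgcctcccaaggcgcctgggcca
The upstream Foxa2 window held none of these motifs. Another Foxa2 window between the 2 shown, chr2:148045949-148046198, is not printed and held 5 KLF matches, with 67.2% of its bases G or C. The downstream Foxa2 window held 1 GATAA and 3 KLF matches, of which 2 overlap in a single run of capitals, and Foxa3 held 3 KLF matches. A match is a run of letters and does not show binding, and the gene-level counts do not tell which Foxa2 start was used.

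Other forkhead genes outside the FOXA group were kept in 14 of 38 cases. On the scale of log2(FPKM + 1), which is used for all such counts, 1 was at least 2-fold higher in Mist1+ than in Mist1- and 0 lower, 0 passed that fold in either direction between Gpx4 KO-Mist1+ and Mist1+, and 2 were higher and 0 lower in Gpx4 KO-Mist1+ than in Mist1-. Over all kept genes, 7.88% were higher and 5.73% lower in the first of these comparisons, 4.81% and 2.74% in the second, and 11.6% and 8.56% in the third, and each list count below is to be read beside these shares. Foxk1 stood at 3.11 FPKM in Mist1-, 7.97 in Mist1+ and 9.21 in the Gpx4 KO-Mist1+ library, and Foxo3, a target of insulin signalling, at 4.93, 9.29 and 14.7. Both were higher in Gpx4 KO-Mist1+ than in Mist1+, where Foxa1 was lower. Foxm1, a forkhead gene of dividing cells, was 1.67-fold (1.53 to 1.82) lower in Gpx4 KO-Mist1+ than in Mist1+. Over the 14 genes the median log2 ratio of Mist1+ to Mist1- was 0.69, that of Gpx4 KO-Mist1+ to Mist1+ was -0.11, and that of Gpx4 KO-Mist1+ to Mist1- was 0.49.

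The HNF4 receptors were present at very different levels. Hnf4a (ENSMUSG00000017950, GRCm38 chr2:163506808-163572910, plus strand, protein coding) stood at 39.0 FPKM (2817 counts) in Mist1-, 53.8 (4202) in Mist1+ and 47.9 (3788) in the Gpx4 KO-Mist1+ library. It was lowest in Mist1- and stayed nearer to the Mist1+ level in Gpx4 KO-Mist1+ than Gata4 or Foxa1 did. Hnf4a was 1.38-fold (1.31 to 1.44) higher in Mist1+ than Mist1-, 1.12-fold (1.08 to 1.17) lower in Gpx4 KO-Mist1+ than in Mist1+, and 1.23-fold (1.17 to 1.29) higher in Gpx4 KO-Mist1+ than in Mist1-. The antisense gene Hnf4aos shares no exonic base with Hnf4a and had 3, 0 and 1 counts. Hnf4g (ENSMUSG00000017688, GRCm38 chr3:3508030-3658052, plus strand, protein coding), the HNF4 paralog best known from intestine, had 65 counts (0.99 FPKM) in Mist1-, 158 (2.22) in Mist1+ and 22 (0.31) in the Gpx4 KO-Mist1+ library. Its 3 intervals did not overlap. Hnf4g was 2.24-fold (1.67 to 3.04) higher in Mist1+ than Mist1-, 7.27-fold (4.64 to 11.9) lower in Gpx4 KO-Mist1+ than in Mist1+, and 3.24-fold (1.97 to 5.52) lower in Gpx4 KO-Mist1+ than in Mist1-. These are folds of counts; on the scale of log2(FPKM + 1), which understates a change in a gene this low, the ratios were 0.69, -1.30 and -0.60. The table's exonic length for Hnf4g, 4389 bases, exceeds the 2630 bases in GENCODE M21, whereas the other 8 genes have the same length in both. With the shorter length, an alternative added after the values were seen, the Hnf4g levels were 1.65, 3.70 and 0.517 FPKM. The ratio of Hnf4a to Hnf4g was 39.4 in Mist1-, 24.2 in Mist1+ and 154 in the Gpx4 KO-Mist1+ library. That ratio was 6.47-fold (4.12 to 10.6) higher in Gpx4 KO-Mist1+ than in Mist1+ and 1.63-fold (1.21 to 2.22) lower in Mist1+ than in Mist1-.

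Genes linked to the HNF4 receptors were listed as the hepatic and endodermal factor network, in which 5 of 12 were kept. None of the 5 passed 2-fold between Gpx4 KO-Mist1+ and Mist1+. Of 13 genes described as HNF4 targets, mostly in liver, 8 were kept. Apoa1, which encodes the main protein of high-density lipoprotein, stood at 652 FPKM in Mist1-, 189.8 in Mist1+ and 586 in the Gpx4 KO-Mist1+ library. This order is opposite to that of Hnf4a. Apob, the protein of very low-density lipoprotein, stood at 1.37, 2.44 and 5.21 FPKM. Apoa1 was the 1 gene of the 8 lower by at least 2-fold in Mist1+ than in Mist1-, and the 1 gene at least 2-fold higher in Gpx4 KO-Mist1+ than in Mist1+, where 0 were lower. Apob passed that fold in Gpx4 KO-Mist1+ over Mist1-, where 0 of the 8 were lower.

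The Krüppel-like factors bind GC-rich and CACCC elements. Klf5 (ENSMUSG00000005148, GRCm38 chr14:99298691-99315036, plus strand, protein coding) stood at 43.7 FPKM (3393 counts) in Mist1-, 58.7 (4940) in Mist1+ and 39.96 (3408) in the Gpx4 KO-Mist1+ library. Mist1+ was again the high library, 1.34-fold (1.29 to 1.40) above Mist1- and 1.47-fold (1.41 to 1.53) above Gpx4 KO-Mist1+. Klf5 in Gpx4 KO-Mist1+ was 1.09-fold (1.04 to 1.15) below Mist1-, a sign that turned on TPM. Klf4 (ENSMUSG00000003032, GRCm38 chr4:55527143-55532466, minus strand, protein coding) stood at 30.6 FPKM (1395 counts), 31.1 (1537) and 35.2 (1758). Klf4 did not differ between Mist1+ and Mist1- beyond counting error, at 1.02-fold (0.945 to 1.09), and was 1.13-fold (1.05 to 1.21) higher in Gpx4 KO-Mist1+ than in Mist1+. It was 1.15-fold (1.07 to 1.23) higher in Gpx4 KO-Mist1+ than in Mist1-. The ratio of Klf4 to Klf5 was 0.701 in Mist1-, 0.531 in Mist1+ and 0.880 in the Gpx4 KO-Mist1+ library, so Klf5 was the more abundant in all 3. That ratio was 1.32-fold (1.21 to 1.44) lower in Mist1+ than in Mist1- and 1.66-fold (1.53 to 1.80) higher in Gpx4 KO-Mist1+ than in Mist1+. Klf5 is the longer gene. The first of these shifts went from a log2 of -0.40, from counts, to -0.05 on log2(FPKM + 1) with the length trend subtracted. The second went from 0.73 to 0.72 with the same change of scale.

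The Klf4 promoter window is shown because Klf4 is the gene of the 9 that differed least. This window also had more KLF matches than any other window examined. It covers chr4:55532476-55532725 of GRCm38.p6 on the minus strand, from RefSeq, with capitals as above.
Klf4: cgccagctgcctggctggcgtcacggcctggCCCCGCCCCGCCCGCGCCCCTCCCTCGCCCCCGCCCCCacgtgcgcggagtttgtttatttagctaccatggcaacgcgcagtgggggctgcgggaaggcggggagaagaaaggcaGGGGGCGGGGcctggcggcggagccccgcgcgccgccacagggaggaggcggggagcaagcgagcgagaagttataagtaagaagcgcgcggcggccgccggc
It held 9 KLF matches, several of them overlapping within 2 runs of capitals, and no GATA, forkhead or HNF4 match. Of its bases 74% were G or C, against 68.8% in the Foxa3 window and 50.8% in the upstream Foxa2 window, and CCNCNCCC is itself made mostly of C.

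The other Krüppel-like genes were kept in 10 of 15 cases. None of the 10 was at least 2-fold apart between Mist1+ and Mist1- on the log2(FPKM + 1) scale. Between Gpx4 KO-Mist1+ and Mist1+, 1 was higher, Klf10, an early response gene of TGF-beta signalling, at 16.1 against 6.67 FPKM, and 1 was lower, Klf2, at 0.92 against 3.28 FPKM. Against Mist1-, 3 were at least 2-fold higher in Gpx4 KO-Mist1+, namely Klf7, Klf9 and Klf10, and 0 were lower. Klf6 had its highest level in Mist1+, at 34.7 FPKM against 21.8 in Mist1- and 17.7 in Gpx4 KO-Mist1+, and so shared its highest library with Klf5. Of 10 genes described as KLF4 or KLF5 targets, 9 were kept. None of the 9 reached a 2-fold difference between Mist1+ and Mist1-, 2 were higher and 1 lower in Gpx4 KO-Mist1+ than in Mist1+, and 2 were higher and 3 lower in Gpx4 KO-Mist1+ than in Mist1-. Cdkn1a, the p21 cell cycle inhibitor that KLF4 is known to activate, stood at 17.2 FPKM in Mist1-, 10.1 in Mist1+ and 38.3 in the Gpx4 KO-Mist1+ library, a 3.80-fold (3.47 to 4.17) difference between the last pair. Klf4 itself differed by 1.13-fold there. Of 2 cyclin genes that passed 2-fold there, Ccne1 was 3.0-fold (2.51 to 3.59) lower in Gpx4 KO-Mist1+ than in Mist1+. The other, Ccnd1, was 2.27-fold (2.18 to 2.36) higher, at 105.66 against 46.52 FPKM.

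Read by comparison on the log2(FPKM + 1) scale, on which the low Hnf4g needs a larger fold of counts, 0 of the 9 genes were at least 2-fold higher in Mist1+ than in Mist1-, where 7.88% of all kept genes were, and 0 were at least 2-fold lower, where 5.73% were. At 1.5-fold, 3 of 9 were higher (Gata4, Foxa1 and Hnf4g) against 23.7% of all genes, and 0 were lower against 15.0%. A log2 ratio above 0 was found for 7 of 9, and for 58.8% of all genes, and the median of the 9 was 0.45 against 0.15 over all genes. In Gpx4 KO-Mist1+ against Mist1+, 0 of 9 were at least 2-fold higher, against 4.81% of all genes, and 1 was lower (Hnf4g), against 2.74%. Hnf4g reached 1 FPKM in Mist1+ alone, so it was kept through the library in which it is high. Nothing is read from this call or from the 1.5-fold calls of Hnf4g in the comparisons that involve Mist1+. The medians of the 9 include Hnf4g. At 1.5-fold, 0 were higher against 10.6%, and 3 were lower (Gata4, Foxa1 and Hnf4g) against 11.3%. Only Foxa2 and Klf4, 2 of 9, had a ratio above 0 in that comparison, against 40.7% of all genes, and the median was -0.48 against -0.09. In Gpx4 KO-Mist1+ against Mist1-, 0 of 9 were at least 2-fold higher against 11.6% and 0 lower against 8.56%. At 1.5-fold, 0 were higher against 25.6% and 2 lower (Foxa3 and Hnf4g) against 20.1%, with a median of 0.02 against 0.09. Foxa3, at a log2 ratio of -0.68 in that comparison, no longer reached 1.5-fold with the length trend subtracted, at -0.32, or on TPM, at -0.41. The 9 genes are too few for these shares to set them apart from other genes. The comparisons share libraries, so that 1 high value in Mist1+ gives both a higher ratio over Mist1- and a lower ratio of Gpx4 KO-Mist1+.

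**Figure D3:**
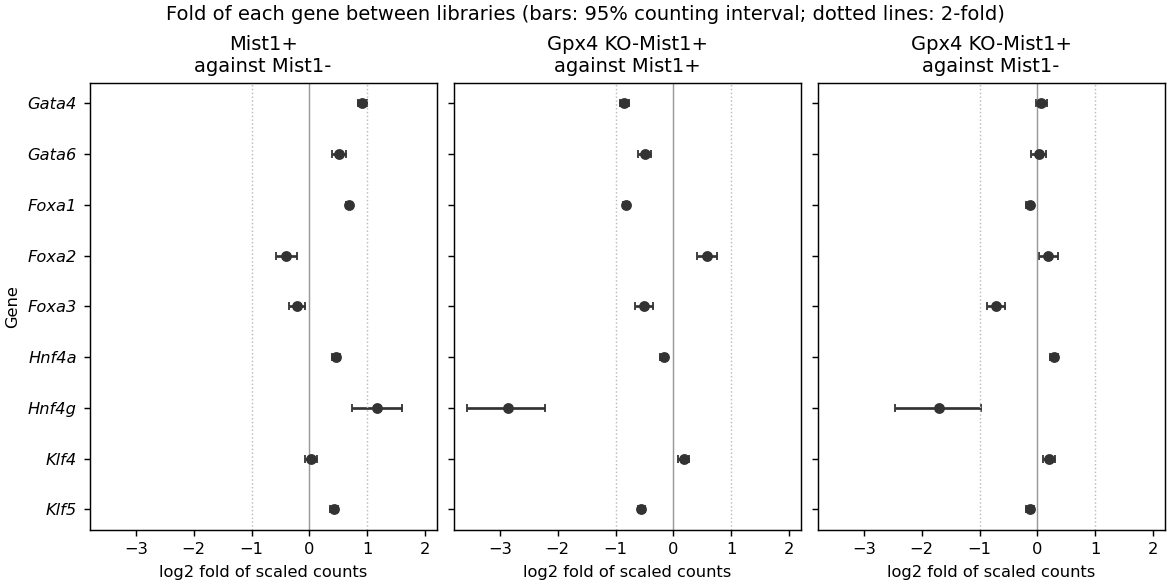
Log2 fold of each gene between libraries, from counts scaled to the library totals (horizontal), with 1 panel per comparison, 95% counting intervals as bars and dotted lines at 2-fold. Hnf4g lies past a dotted line in all 3 panels, with count folds of 2.24 higher, 7.27 lower and 3.24 lower, and the other 8 genes lie inside the lines; on log2(FPKM + 1) Hnf4g passes 2-fold in the middle panel alone.

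The highest library of each gene is read from the same FPKM values as the ratios, so it restates them and adds no further support. It is given without a fold threshold and without the length subtraction described below. Mist1+ was the highest library for 6 of 9 genes (Gata4, Gata6, Foxa1, Hnf4a, Hnf4g and Klf5), and it was so for 36.9% of all kept genes; for Hnf4g the filter fixes this, since only Mist1+ reached 1 FPKM. Mist1- was the highest for Foxa3 alone, against 32.6% of all genes, and Gpx4 KO-Mist1+ for Foxa2 and Klf4, against 30.5%. Each family held at least 1 gene with its peak in Mist1+, and in the FOXA and KLF families another gene had its peak elsewhere.

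Gene length moved with some of these ratios. Across all kept genes, longer genes had higher ratios in Mist1+ against Mist1-, with a Spearman rho of 0.49 over genes, and in Gpx4 KO-Mist1+ against Mist1-, with 0.39, but not in Gpx4 KO-Mist1+ against Mist1+, with -0.02. The 9 genes have exonic lengths from 2037 bases (Foxa3) to 6508 (Gata6). The median log2 ratio of Mist1+ against Mist1- went, over 5 equal groups of genes by length, from -0.36 in the shortest, through -0.23, 0.09 and 0.36, to 0.63 in the longest. Foxa2 and Foxa3 lie in the second group and had ratios of -0.37 and -0.20, while Gata6, Hnf4a and Klf5 lie in the fourth and had 0.48, 0.45 and 0.42. With a smooth trend on length subtracted, these 3 came to 0.06, 0.21 and 0.13, and Foxa2 and Foxa3 to -0.15 and 0.11. Gata4 kept 0.79 of its 0.90, Foxa1 stood at 0.68 both ways and Hnf4g at 0.51 against 0.69. In Gpx4 KO-Mist1+ against Mist1+, the subtracted values were -0.70 for Gata4, -0.69 for Foxa1, 0.65 for Foxa2, -1.17 for Hnf4g and -0.04 for Hnf4a. Subtraction in the comparison of Gpx4 KO-Mist1+ with Mist1- took Foxa2 from 0.18 to 0.46, Gata6 from 0.02 to -0.31 and Klf5 from -0.12 to -0.32, while Hnf4g went from -0.60 to -0.69. The ratios of the related gene lists are given without this subtraction. The part of RNA quality or library preparation in this trend was not tested.

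**Figure D4:**
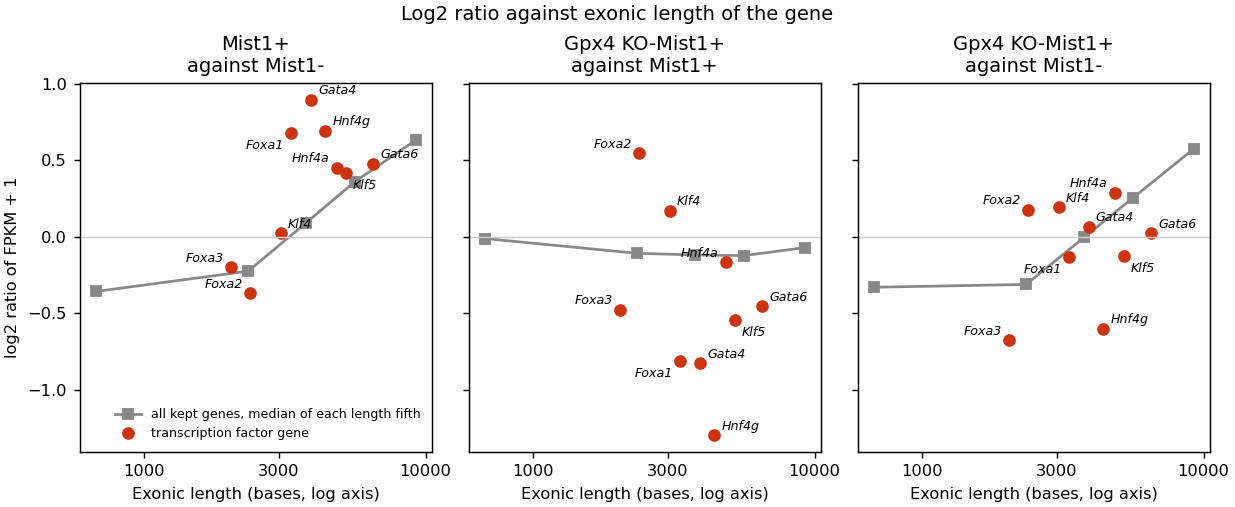
Log2 ratio of FPKM + 1 (vertical) against exonic length in bases (horizontal, log axis), with 1 panel per comparison, red points for the 9 genes and grey squares for the median of all kept genes in each of 5 length groups. In Mist1+ against Mist1-, the grey line climbs from -0.36 to 0.63, with Gata6 at 0.48 close to it and Gata4 at 0.90 and Foxa1 at 0.68 above it.

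Genes that partner with the 9 factors or act on their proteins were also read. Of 16 cofactors, competitors and ubiquitin ligases, 13 were kept, of which 3 were higher by at least 2-fold and 0 lower in Mist1+ than in Mist1-, 1 higher and 0 lower in Gpx4 KO-Mist1+ than in Mist1+, and 3 higher and 0 lower in Gpx4 KO-Mist1+ than in Mist1-. The shares of all genes that were higher were 7.88%, 4.81% and 11.6% in these comparisons. Wwp1, a ubiquitin ligase known to act on KLF5, stood at 13.2 FPKM in Mist1-, 33.0 in Mist1+ and 22.0 in the Gpx4 KO-Mist1+ library, with its peak in the same library as Klf5. Zfpm1, which encodes the GATA cofactor FOG1, was 1.89-fold (1.78 to 2.01) higher in Mist1+ than Mist1-. Ppargc1a, which encodes the HNF4A coactivator PGC-1alpha, stood at 0.91, 1.88 and 7.23 FPKM, so its highest library was Gpx4 KO-Mist1+, whereas Hnf4a had its highest level in Mist1+. Of 24 other gastric, foregut and epithelial transcription factors, 21 were kept. In Mist1+ against Mist1-, 2 of them were higher by at least 2-fold (Nkx6-3 and Esrrg) and 0 lower, and in Gpx4 KO-Mist1+ against Mist1+ 0 were higher and 2 lower (Creb3l4 and Nkx6-3). In Gpx4 KO-Mist1+ against Mist1-, 2 were higher (Creb3l1 and Esrrg) and 2 lower (Creb3l4 and Spdef). Nkx6-3, a homeobox gene of the stomach, stood at 0.21 FPKM in Mist1-, 3.09 in Mist1+ and 0.63 in the Gpx4 KO-Mist1+ library, and like Hnf4g it passed the filter through Mist1+ alone, which fixes that library as its highest. Of 8 intestinal transcription factors, 0 were kept.

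Among genes described as targets of the FOXA and GATA factors, the abundant ones had another order over the libraries than Foxa1 and Gata4. Of 9 described FOXA targets 4 were kept, and 0 were higher and 1 lower, Tff1, by at least 2-fold in Mist1+ than in Mist1-. The counts were 0 and 0 in Gpx4 KO-Mist1+ against Mist1+, and 0 higher and 1 lower, again Tff1, in Gpx4 KO-Mist1+ against Mist1-. Of 8 described GATA targets 4 were kept, with 0 higher and 2 lower (Tff1 and Tff2) in Mist1+ than in Mist1-, 1 higher (Tff2) and 0 lower in Gpx4 KO-Mist1+ than in Mist1+, and 0 higher and 1 lower (Tff1) in Gpx4 KO-Mist1+ than in Mist1-. Tff1, a trefoil peptide of gastric mucus that stands in both lists, was at 657 FPKM in Mist1-, 90.6 in Mist1+ and 87.7 in the Gpx4 KO-Mist1+ library. It was low in both Mist1+ libraries, whereas Foxa1 and Gata4 were high in only 1 of them. Agr2, a secretory pathway gene described as a FOXA target, stood at 314, 193 and 229 FPKM, lowest where Foxa1 was highest. Atp4a, a subunit of the gastric proton pump described as a GATA target, was low throughout, at 1.03, 1.69 and 1.35 FPKM. Its highest level was in Mist1+, as for Gata4. That level was 1.26-fold (0.932 to 1.70) the one in Gpx4 KO-Mist1+, so these libraries did not differ in Atp4a beyond counting error.

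The medians of the related lists in Mist1+ against Mist1-, where all kept genes had 0.15, were 0.44 for the other Krüppel-like genes, 0.50 for the hepatic and endodermal network, 0.48 for the gastric and foregut factors and 0.60 for the cofactors. They were 0.01 for the described HNF4 targets, -0.67 for those of FOXA, -0.89 for those of GATA and -0.01 for those of KLF. These lists of factors and cofactors thus lay above the median of all genes, near the 0.45 of the 9 genes, and the target lists below it. These medians are without the length subtraction, in a comparison where length and ratio had a rho of 0.49. The part of gene length in this split was not tested. The FOXA and GATA target medians rest on 4 kept genes each, with Tff1 in both. In Gpx4 KO-Mist1+ against Mist1+, with -0.09 over all genes, the same lists had -0.15, -0.20, -0.09, -0.17, 0.11, -0.06, -0.08 and -0.49. Among these lists, the described KLF targets alone lay near the -0.48 of the 9 genes. In Gpx4 KO-Mist1+ against Mist1-, with 0.09 over all genes, the same lists had 0.39, 0.29, 0.41, 0.46, 0.24, -0.77, -0.41 and -0.58. Some genes stand in more than 1 list, among them Tff1 and Ttr. The 14 other forkhead genes had medians of 0.69, -0.11 and 0.49 in the same order of comparisons, and 0.69 was above every list median given for the first. Gata5, the 1 kept gene of the other GATA list, had 0.42, -0.38 and 0.05.

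To see which other genes ran in parallel, the pair of log2 ratios of Mist1+ and of Gpx4 KO-Mist1+ to Mist1- was taken as the profile of a gene, and each of the 9 was compared by Euclidean distance with the 8037 genes with a RefSeq protein that reached 5 FPKM in some library. Such a profile rests on 3 libraries and is a description. Gata4 lay nearest to Rbl1, which encodes the pocket protein p107, and to Pik3r1, a regulatory subunit of PI3-kinase, at distances of 0.014 and 0.015, and 8 genes lay within 0.1 of it. Foxa1 lay nearest to Chaf1a, a chromatin assembly subunit, and Pof1b, with 32 genes within 0.1. Hnf4g had only Slc35e3 within that distance, at 0.053, followed by Ptpro at 0.11. Hnf4a lay nearest to Nkapd1 and 9430015G10Rik and had 149 genes within 0.1, and Gata6, nearest to Topors and Bub1b, had 127. Foxa2 lay nearest to Ier5l and Pnrc1 (24 genes within 0.1), Foxa3 to Tarbp2 and Slc25a38 (75), Klf4 to Tent2 and Frrs1 (94) and Klf5 to Rbmx and Cables2 (70). Hnf4g itself stayed below the 5 FPKM asked of the compared genes, and its log2(FPKM + 1) ratios of 0.69 and -0.60 understate its count folds. Its neighbours and their number thus also reflect that scale. Apart from Hnf4g, Gata4 had the rarest profile of the 9 among these genes, and Hnf4a and Gata6 had the commonest.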

How the data were processed

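The deposited table gives, per the file headers, a count for each gene and library, the whole number of reads on the gene, and an FPKM that the authors derived from it. The submitters' processing notes name cutadapt 1.9.1, HISAT2 2.2.1, HTSeq 0.6.1 and GRCm38.p5; strand setting and filters are not given in the sources used here. The deposited FPKM differed from count divided by exonic length and total by at most 2.77% among genes with at least 50 counts, a check that does not cover Hnf4g in Gpx4 KO-Mist1+. Lines without a symbol (2639) held at most 0.298% of the counts.

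The 9 genes and the lists of related and marker genes were chosen with earlier results of these data known. Genes with at least 1 FPKM in some library were kept. Log2 ratios were of FPKM plus 1; folds of at least 2 and 1.5 were counted over all kept genes. Folds with intervals came from counts scaled to library totals. All 9 genes were described, with the genes of largest change in each list and the 2 nearest profiles (genes of at least 5 FPKM in some library). The length trend was a lowess curve with a fraction of 0.3. Scripts were tested on simulated data. Work was done in Python 3.11.15 with matplotlib 3.10.9 for figures, statsmodels 0.14.6 for the curve, scipy 1.17.1 for intervals, and pandas 2.3.3 and numpy 2.4.6.

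Coordinates are those of GENCODE M21 on GRCm38, matched by gene identifier. The table's own positions equal them for 2 of the 9 genes and its gene widths for 8, so the build of its positions is not known. Of the 50-base words in M21 transcripts of the 9 genes, none was shared between the 9; Gata6 shared 0.682% with 1010001N08Rik, Klf4 0.263% with Gm48640 and Klf5 0.0777% with Gm6007. RefSeq promoter windows (GRCm38.p6) were held for 5 of the 9 genes. No protein sequence was used here. Some genes of the lists are not reported here.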

Additional observations from a re-analysis of the deposited data

How the results depend on the processing

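Ratios were recomputed with a pseudocount of 0.1 or 5, without the filter, with a filter of 5 FPKM, on TPM, on CPM (counts scaled to the library total), by median ratio scaling, at a 1.5-fold threshold and with the length trend removed. Across them 7 of 9 genes kept their sign in Mist1+ against Mist1- (not Foxa3 and Klf4), 9 of 9 in Gpx4 KO-Mist1+ against Mist1+, and 6 of 9 in Gpx4 KO-Mist1+ against Mist1- (not Gata6, Foxa1 and Klf5). The count at least 2-fold higher in Mist1+ than in Mist1- was 0; it became 1 with a pseudocount of 0.1 and 1 on CPM (Hnf4g both times), 3 on TPM (Gata4, Foxa1 and Hnf4g) and 3 at 1.5-fold. The count lower in Gpx4 KO-Mist1+ than in Mist1+ was 1; it became 0 with a pseudocount of 5, 0 with the filter of 5 FPKM, which removes Hnf4g, and 3 at 1.5-fold. The count lower in Gpx4 KO-Mist1+ than in Mist1- was 0; it became 1 with a pseudocount of 0.1, 1 on CPM and 2 at 1.5-fold. Over all kept genes, Mist1+ against Mist1- gave 1052 genes up and 765 down by at least 2-fold, against 3795 and 673 on TPM, 737 and 1065 by median ratio scaling and 129 and 396 with a pseudocount of 5; the median of all genes was 0.15, 0.45, 0.01 and 0.08 respectively. No paired analysis was possible because each group has 1 library, and no library could be left out. Depth limited Hnf4g most, with 22 counts in Gpx4 KO-Mist1+.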
